A study of Homo sapiens with 4 samples.

Results

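The 10 genes described here encode antiviral effectors: the dynamin-like GTPases MX1 and MX2, the ADP-ribosylation proteins PARP9 and PARP14, the ubiquitin ligase DTX3L, the paralogues SAMD9 and SAMD9L, the nucleotide enzymes CMPK2 and RSAD2, and XAF1. They were taken by name from the deposited table of 47251 genes, and each of the 10 names was found once. None of them was called a differentially expressed gene (DEG) after MFAP2 knockdown in the comparison made here, beside 0.273% of the genes tested. For 6 of the 10 (MX1, MX2, PARP9, DTX3L, SAMD9L and XAF1), both knockdown libraries were nevertheless above both controls, as for 16.0% of all genes with a value above 0, and for no member were they below. Of these 6, MX1, SAMD9L and XAF1 had values too low for the main comparison. Among the 7 members tested there, 3 were so placed, beside 17.5% of the genes tested. The shares of PARP9 transcripts that begin at its different first exons also lay apart in the groups, although the value of the whole gene hardly did. This grouping was chosen after the values had been seen, and the shares were nearly equal in sh-MFAP2 replicate 2 (50.9% and 48.4%). How many other genes have such a difference was not counted. The outer of these first exons lies wholly within an exon of DTX3L and the inner ones overlap it in part. Reads from the shared bases may belong to either gene. These are bulk values, in which fewer expressing cells and less RNA per cell cannot be told apart.

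RNA was sequenced from 4 libraries of AGS, a human gastric adenocarcinoma cell line, to follow gene expression after knockdown of MFAP2, a protein of extracellular microfibrils. For 2 libraries, called sh-MFAP2 replicates 1 and 2, the cells had been infected with a lentivirus expressing a short hairpin RNA (shRNA) that targets MFAP2. For the other 2, called control replicates 1 and 2, the virus expressed a scrambled hairpin. Both groups therefore carried a lentiviral vector with green fluorescent protein and had been selected with puromycin for weeks, and no uninfected cells were analysed here. The sample titles give both knockdown libraries the same hairpin name (sh1), while their description fields read sh1 and sh2, so a second hairpin cannot be told apart from a second replicate by the labels alone. Nothing in the labels says that replicates came from separate cultures, so the p-values may measure technical spread only.

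Interferons are cytokines that cells release when they sense viral nucleic acid. Bound to their receptors, they activate a transcription factor complex that contains STAT2 and IRF9 and binds the interferon-stimulated response element, a DNA motif with repeated GAAA. Genes under this element encode proteins that block viruses at many steps. MX1 and MX2 trap viral nucleocapsids. PARP9 and DTX3L form a complex that modifies histones and host or viral proteins, and PARP14 is a related mono-ADP-ribosyltransferase. SAMD9 and SAMD9L restrict poxviruses and repress translation. RSAD2, also called viperin, makes a chain-terminating nucleotide from CTP, and CMPK2, a mitochondrial kinase, supplies nucleotide triphosphates. XAF1 binds the apoptosis inhibitor XIAP.

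Several members lie side by side in the genome, all coordinates being from GENCODE 29 on GRCh38. MX2 (chr21:41361943-41409390) and MX1 (chr21:41420304-41459214) are both on the plus strand with 10913 bases between them. SAMD9 (chr7:93099513-93118023) and SAMD9L (chr7:93130055-93148369) are both on the minus strand, 12031 bases apart. PARP9 (chr3:122527924-122564577, minus strand) and DTX3L (chr3:122564238-122575203, plus strand) lie head to head and overlap by 340 bases, and PARP14 (chr3:122680618-122730840, plus strand) follows DTX3L after 105414 bases. CMPK2 (chr2:6840570-6866635, minus strand) and RSAD2 (chr2:6865806-6898239, plus strand) also lie head to head, with an overlap of 830 bases. XAF1 (chr17:6755447-6775647, plus strand) has no neighbour among the 10. Whether the counting used strand is not given in the sources used here, and without strand the reads of overlapping genes cannot be told apart.

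The promoters show how the response element is written at these genes. RefSeq promoters on GRCh38.p14, from 250 bases before to 50 bases after an annotated start, were searched on both strands for GAAANNGAAA, the core of the element. The table held 16 promoters for 9 of the 10 members and none for MX2. The motif was found at 6 of these 9 members, against 4.38% of the 27305 genes in the table, and in 3.57% of all 35116 promoters. A form with a spacer 1 base shorter, GAAANGAAA, was searched after the sequences had been seen and can overlap the first. It was found at 6 of 9 members, XAF1 and CMPK2 among them, against 3.87% of genes, and in 3.12% of promoters. The motif TTCNNNGAA of the gamma-activated site was found at MX1 and PARP14 only, against 9.38% of genes, and in 7.66% of promoters. A match is a match of letters and no evidence of binding. The windows below, each read 5′ to 3′ on the strand of its gene, were chosen to show 1 match per member with the match in capitals (TTTC marks the reverse orientation).
PARP9, chr3:122564322-122564351: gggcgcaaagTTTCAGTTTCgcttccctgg
DTX3L, chr3:122564322-122564351: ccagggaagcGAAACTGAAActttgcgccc
PARP14, chr3:122680800-122680829: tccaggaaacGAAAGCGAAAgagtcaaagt
MX1, chr21:41420559-41420588: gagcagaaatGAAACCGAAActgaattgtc
RSAD2, chr2:6877622-6877651: ctgtttcaacTTTCAGTTTCacatgtggaa
SAMD9, chr7:93118081-93118140: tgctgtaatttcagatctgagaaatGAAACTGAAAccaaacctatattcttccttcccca
XAF1, chr17:6756031-6756060: ttgcctgcaaGAAACGAAActcaaccgaaa
CMPK2, chr2:6865814-6865843: ggcctccggcTTTCGTTTCcccgcaacgct
The windows of PARP9 and DTX3L are the same 30 base pairs read on opposite strands. The match of CMPK2 shown here is likewise one of 4 one-base-spacer matches in the RSAD2 promoter on the opposite strand. The match of DTX3L begins 6 bases before its RefSeq start, and that of PARP14 begins 29 bases before. In GENCODE 29, however, both matches lie downstream of the start, inside the first exon of the main transcript of each gene.

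The deposited tables name no unit, and their values are read here as FPKM, a number of fragments divided by transcript length and by sequencing depth. The spacing of the low values points to some 54600000 to 74700000 reads per library, which is an estimate and not a read count of the authors. MFAP2 was at 0 FPKM in each knockdown library and at 0.0116 and 0.0138 FPKM in the controls. The latter values correspond to about 2 and 3 reads, so MFAP2 mRNA could not check the labels. Epithelial markers (KRT8, KRT18, KRT19, EPCAM, CLDN4) summed to 1730 to 1980 FPKM per library, although CLDN4 was above 1 FPKM in sh-MFAP2 replicate 1 only. Leukocyte markers, 7 in number, were carried by LYZ (85.5 and 579 FPKM in sh-MFAP2, 89.3 and 369 FPKM in control), with PTPRC at 0.0175 FPKM or less. Fibroblast markers summed to 2.34 and 2.12 FPKM in sh-MFAP2 and to 4.39 and 4.96 FPKM in control, almost all COL1A1, and endothelial markers to 0.038 FPKM or less. The part of these markers in the results below was not tested.

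Groups were compared with limma on log2(FPKM + 1) for 9873 genes, those whose mean over the libraries reached 1 FPKM. A DEG had p under 0.01 and adjusted p under 0.05, the thresholds of the study. The study itself used a random variance model test, so its list of DEGs is not the one used here. The pseudocount of 1 understates the change of low genes. Of the 10 members, 7 passed the filter, while MX1, SAMD9L and XAF1 lay under it. None of the 7 was a DEG, against 0.273% of all genes tested (27 genes). At an unadjusted p under 0.05, MX2 alone was higher, beside a background of 3.89% of genes higher (384 genes) and 8.41% lower (830 genes). With scaling by median of ratios these counts were 551 higher and 567 lower. With every gene above 0 in at least 1 library tested, 3 members were higher at an unadjusted p under 0.05 (MX2, SAMD9L and XAF1), where 3.84% of 23806 genes were. In that wider table, 16.0% of genes had each knockdown library above each control, beside 6 of the 10 members. DEGs made up 0.0252% of it and included no member. Over the 9873 genes, 17.5% lay above and 31.4% below both controls in this way. An exact permutation test of 2 libraries against 2 cannot give a two-sided p below 0.333 for a single gene.

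**Figure D1:**
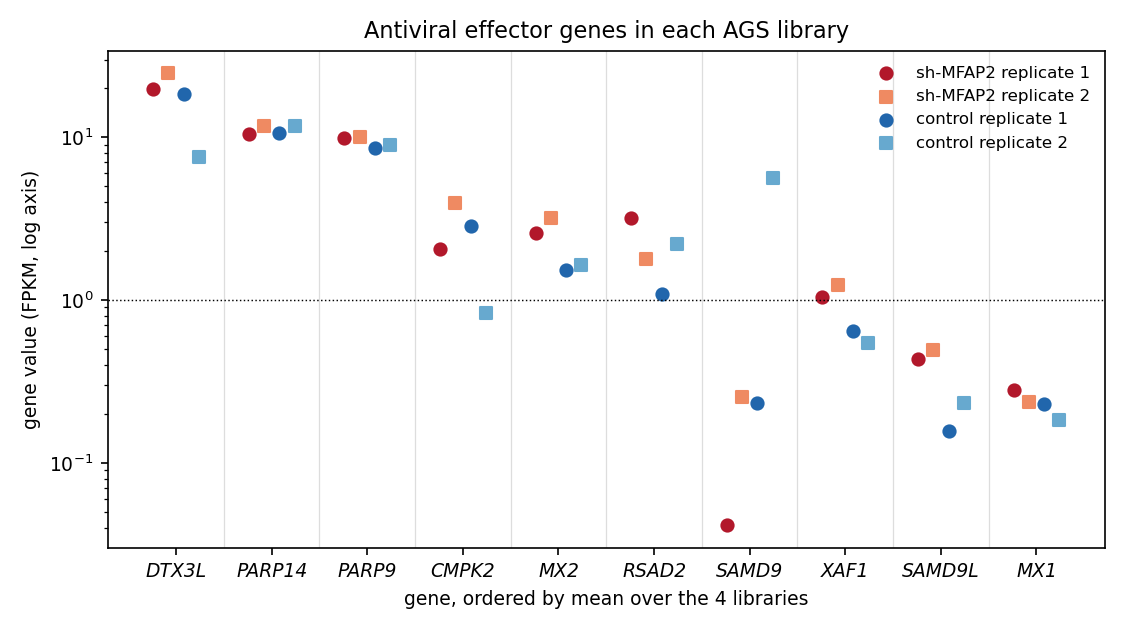
Value of each of the 10 genes in FPKM (vertical log axis) in each library (points, sh-MFAP2 in red tones and control in blue tones, genes ordered by their mean over the 4 libraries); the dotted line marks 1 FPKM. MX1, MX2, PARP9, DTX3L, SAMD9L and XAF1 have their red points above their blue points, as do 16.0% of all genes above 0. SAMD9 is high in control replicate 2 alone at 5.59 FPKM, and DTX3L and CMPK2 are low in that library.

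On the scale of gene values, the members spanned a wide range. DTX3L, PARP14 and PARP9 formed the upper group, with means over the 4 libraries of 17.7, 11.1 and 9.39 FPKM. CMPK2, MX2, RSAD2 and SAMD9 followed with means of 2.43, 2.24, 2.06 and 1.53 FPKM, and XAF1, SAMD9L and MX1 had 0.869, 0.330 and 0.232 FPKM. PARP14 was above PARP9 in all 4 libraries, DTX3L above PARP14 in 3 of 4, and CMPK2 above MX2 in only 2 of 4, so that neighbours in the middle of the order did not hold their places. The order also depends on the scale. The gene values imply 1 length per gene, back-calculated from the transcript values as 13047 bases for MX2 against 3042 for its main transcript. How that length was set is not known. By sums of transcript values PARP9 came first in every library.

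MX2 had the smallest p of the 7 members tested. Its values were 2.58 and 3.21 FPKM after knockdown (replicates 1 and 2, in this order throughout) against 1.53 and 1.64 FPKM in the controls. Each knockdown library was above each control, and the mean was 1.83 times that of control (2.89 ± 0.446 against 1.58 ± 0.0790 FPKM, SD, n = 2 per group). The log2 fold change was 0.59 (standard error 0.131, unadjusted p = 0.0125, adjusted p = 0.339 in limma with Benjamini-Hochberg adjustment). MX2 therefore did not pass the adjusted threshold. Nearly all of its reads (95.1%) were assigned to the protein-coding transcript ENST00000330714, with 10.6 and 12.9 FPKM after knockdown against 6.28 and 6.70 FPKM in the controls. On the log2 scale of transcripts this difference was 0.76 (standard error 0.190, unadjusted p = 0.0182, adjusted p = 0.551 in limma). Without control replicate 1 or control replicate 2, the unadjusted p of the MX2 gene in limma was 0.0700 or 0.0536.

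MX1, the paralogue whose protein acts against influenza viruses in the cytoplasm, was nearly silent. It had 0.278 and 0.237 FPKM after knockdown against 0.229 and 0.183 FPKM in the controls, from an estimated 112 to 146 reads per library. The lower knockdown library stood only just above the higher control. Its main transcript, ENST00000398600, held 78.0% of the MX1 reads, and there the groups overlapped. This transcript had 0.357 and 0.514 FPKM after knockdown against 0.494 and 0.431 FPKM in the controls. MX1 was 0.074 to 0.15 of MX2 in gene value in each library. With no filter on low values the log2 fold change of MX1 was 0.06 (unadjusted p = 0.223 in limma).

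PARP9, which binds ADP-ribose through macrodomains and pairs with DTX3L, was among the steadiest members as a gene. Its values were 9.95 and 9.97 FPKM after knockdown against 8.63 and 9.01 FPKM in the controls. The groups did not overlap, yet the means differed by a factor of only 1.13, with a log2 fold change of 0.16 (standard error 0.0990, unadjusted p = 0.187, adjusted p = 0.542 in limma). PARP14, the larger macrodomain enzyme, had 10.4 and 11.7 FPKM after knockdown against 10.6 and 11.7 FPKM in the controls. Its groups overlapped throughout, with a log2 fold change of -0.01 (standard error 0.123, adjusted p = 0.981 in limma), which was 0.05 with quantile normalization and 0.06 with median of ratios.

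DTX3L, the E3 ubiquitin ligase of the pair, had 19.9 and 24.7 FPKM after knockdown against 18.5 and 7.53 FPKM in the controls. Control replicate 2 stood apart: it was under 0.5 times every other library, as were 1.3% of all genes tested. The difference was 0.85 on the log2 scale (standard error 0.457, unadjusted p = 0.142, adjusted p = 0.501 in limma). It was 0.25 without control replicate 2 (unadjusted p = 0.370 in limma) and 1.44 without control replicate 1 (unadjusted p = 0.00781, adjusted p = 0.474 in limma), where DTX3L and not MX2 was the 1 member higher at an unadjusted p under 0.05. PARP9 did not follow DTX3L in that library, and the ratio of PARP9 to DTX3L in gene value was 0.5, 0.404 and 0.467 in the other libraries and 1.2 in control replicate 2.

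The transcripts of PARP9 lay further apart between the groups than the gene value did. Of its 7 transcripts, 4 begin at an inner first exon (from 122564111 to between 122564242 and 122564315) and 2 at an outer first exon (chr3:122564439-122564577), which lies downstream of the DTX3L start. Inner-start transcripts summed to 20.5 and 13.1 FPKM after knockdown and to 6.27 and 7.46 FPKM in the controls, which was 80.6% and 50.9% of PARP9 transcript values in sh-MFAP2 and 28.0% and 31.9% in control. Outer-start transcripts summed to 4.65 and 12.4 FPKM after knockdown and to 16.0 and 15.8 FPKM in the controls. Thus the inner start was the larger part in both knockdown libraries and the smaller in both controls, with 50.9% against 48.4% for the outer start in sh-MFAP2 replicate 2. Between the groups, the mean inner-start sum after knockdown was 2.45 times that of control, and the mean outer-start sum was 0.536 times that of control. The grouping by first exon was chosen after the values had been seen and was not tested as a sum. How many other genes have start shares that lie apart in this way was not counted. The outer-start difference was largely that of sh-MFAP2 replicate 1: the log2 difference was -0.96 with all libraries and -0.33 without it.

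Of single PARP9 transcripts, the inner-start ENST00000471785 had 17.2 and 10.1 FPKM after knockdown against 3.99 and 5.02 FPKM in the controls. Its log2 fold change was 1.38 (standard error 0.322, unadjusted p = 0.0152, adjusted p = 0.515 in limma over 22312 transcripts). The outer-start ENST00000477522 had 2.45 and 8.72 FPKM after knockdown against 10.9 and 13.2 FPKM in the controls, with a log2 fold change of -1.17 (unadjusted p = 0.120, adjusted p = 0.691 in limma). Among the 80 transcripts of the 10 members, 53 were above 0 and 12 from 8 members were tested. With the MX2 transcript above, ENST00000471785 made 2 at an unadjusted p under 0.05, a level reached by 7.64% of all transcripts (1704), and limma called no transcript in the whole table at the thresholds for a DEG.

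The shared motif match lies between these starts. It is 17 to 90 bases upstream of the inner PARP9 starts and 236 bases downstream of the outer start, inside the first intron of the outer-start transcripts. All 139 bases of the outer first exon lie within exon 1 of DTX3L on the other strand. The inner first exons, of 132 to 205 bases, overlap that exon by 5 to 78 bases. Reads from the shared bases belong to either gene where strand was not used, and the shares of the PARP9 starts carry that limit.

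**Figure D2:**
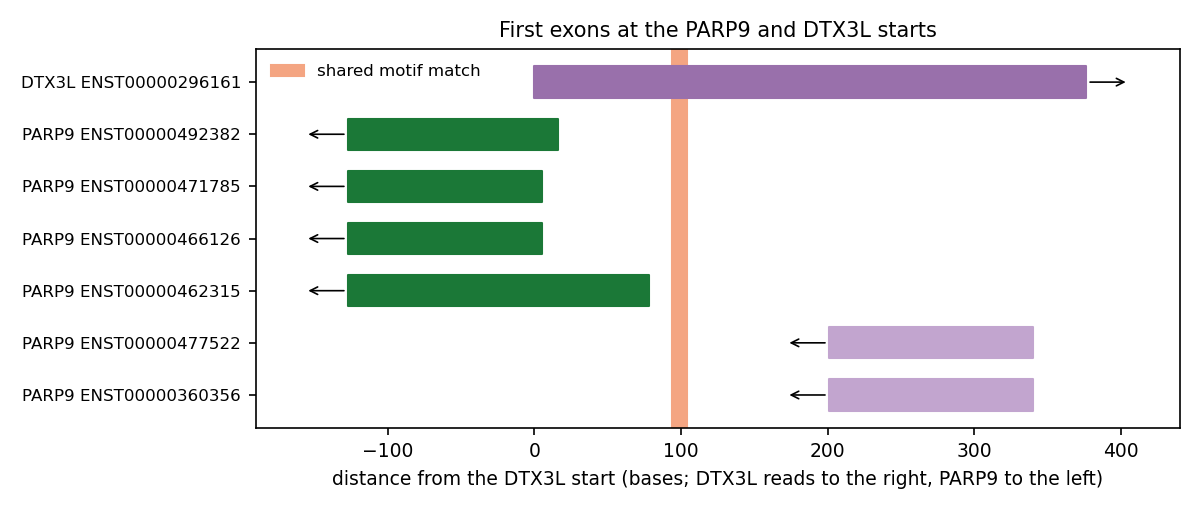
First exons of the 6 PARP9 transcripts that begin at the inner start (green) or the outer start (light purple) and of DTX3L (dark purple), by distance in bases from the DTX3L start; arrows give the direction of transcription and the orange band the shared motif match. The outer PARP9 exon of 139 bases lies wholly within the DTX3L exon, and the match lies between the inner and outer starts.

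**Figure D3:**
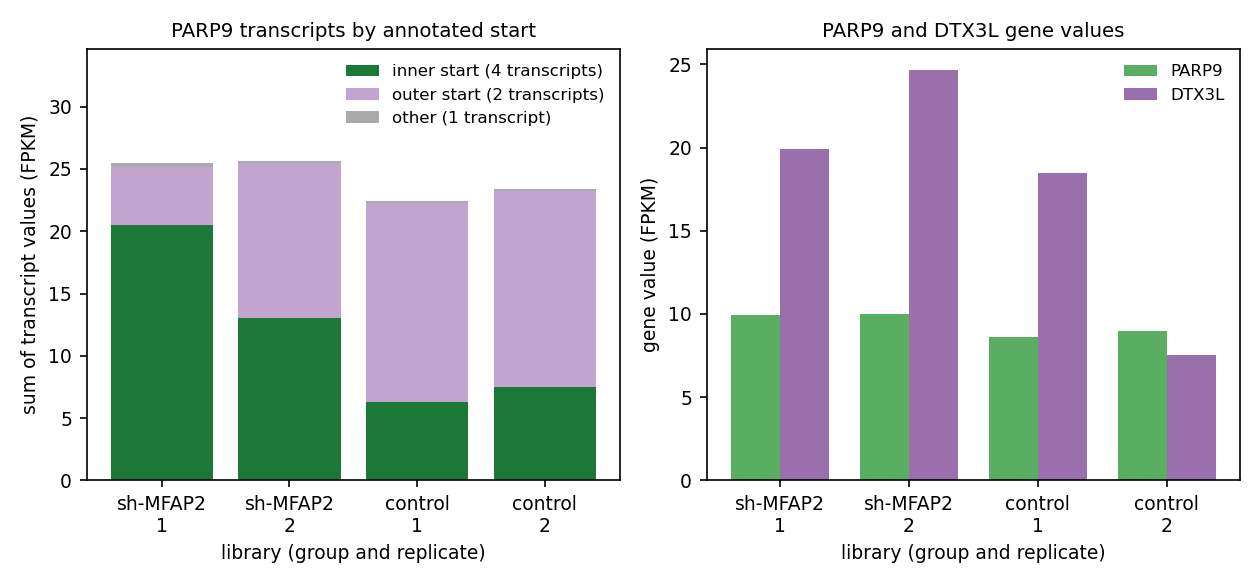
Left, sums of PARP9 transcript values in FPKM (stacked bars from 0) by annotated start in each library; right, gene values of PARP9 and DTX3L in FPKM in each library. The inner start makes up 80.6% and 50.9% of PARP9 in sh-MFAP2 and 28.0% and 31.9% in control, and DTX3L is lowest in control replicate 2 at 7.53 FPKM, where PARP9 is not.

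SAMD9 showed the widest range of any member, and its range was not one of groups. It had 0.0414 and 0.254 FPKM after knockdown against 0.235 and 5.59 FPKM in the controls. Control replicate 2 was more than 10 times every other library, as for only 3 genes of all those tested (0.0304%), and the highest library was 135 times the lowest. At the other end, sh-MFAP2 replicate 1 was under 0.5 times every other library, as were 2.4% of genes. The estimated reads were 17 and 95 after knockdown and 95 and 2861 in the controls. The log2 fold change was -1.32 (standard error 0.890, unadjusted p = 0.217, adjusted p = 0.564 in limma). It was -0.11 without control replicate 2 (unadjusted p = 0.621 in limma) and -2.53 without control replicate 1 (unadjusted p = 0.000943, adjusted p = 0.208 in limma). SAMD9 passed the filter on low values through that library alone.

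SAMD9L, its neighbour and paralogue, had no such peak. Its values were 0.433 and 0.495 FPKM after knockdown against 0.156 and 0.234 FPKM in the controls. Both knockdown libraries were above both controls, and the mean was 2.38 times that of control at a level under the filter (an estimated 66 to 193 reads per library). With no filter on low values, the log2 fold change was 0.29 (unadjusted p = 0.0118, adjusted p = 0.434 in limma). The ratio of SAMD9 to SAMD9L ran from 0.0957 in sh-MFAP2 replicate 1 to 23.8 in control replicate 2.

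CMPK2 and RSAD2, head to head and both acting on nucleotides, did not separate the groups. CMPK2 was low in control replicate 2 alone, again under 0.5 times every other library. CMPK2 had 2.06 and 3.96 FPKM after knockdown against 2.85 and 0.837 FPKM in the controls. RSAD2 had 3.19 and 1.78 FPKM after knockdown against 1.08 and 2.21 FPKM in the controls. The replicates of each group lay in opposite order for the pair: in sh-MFAP2 the library with more CMPK2 had less RSAD2, and the same was seen in control. The ratio of CMPK2 to RSAD2 was accordingly 0.646 and 2.23 in sh-MFAP2 and 2.63 and 0.379 in control. The log2 fold changes were 0.55 for CMPK2 (standard error 0.474, adjusted p = 0.629 in limma) and 0.40 for RSAD2 (standard error 0.327, adjusted p = 0.617 in limma). With each library left out in turn, these differences ran from 0.02 to 1.08 for CMPK2 (lowest without control replicate 2) and from 0.09 to 0.71 for RSAD2 (lowest without control replicate 1).

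XAF1, which promotes apoptosis in interferon-treated cells, had 1.05 and 1.23 FPKM after knockdown against 0.647 and 0.547 FPKM in the controls. Both knockdown libraries were above both controls, with a mean 1.91 times that of control. The gene lay just under the filter with its mean of 0.869 FPKM. With no filter on low values, the log2 fold change was 0.42 (unadjusted p = 0.0282, adjusted p = 0.495 in limma). Its main transcript, ENST00000361842, passed the filter on transcripts, with a log2 fold change of 0.51 (unadjusted p = 0.0738, adjusted p = 0.674 in limma). XIAP, the partner that XAF1 binds, had 3.05 and 3.39 FPKM after knockdown against 4.26 and 4.22 FPKM in the controls, with a log2 fold change of -0.31 (unadjusted p = 0.0441, adjusted p = 0.399 in limma).

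Other genes of the pathway were counted in lists written with earlier results of these data known. Of 60 further interferon-induced genes, 50 were tested, 41 with a higher and 9 with a lower mean in sh-MFAP2, and the median log2 fold change was 0.38. Of all 9873 genes tested, 4151 had a higher and 5722 a lower mean, with a median of -0.05, and the median of the 7 members tested was 0.40. At an unadjusted p under 0.05, 19 of the 50 were higher, where 3.89% of all genes were, and 1 was lower (BST2, named after its value was seen), where 8.41% were. Limma called no gene of the list. Each knockdown library was above each control for 33 of the 50 and below for 1, beside 17.5% and 31.4% of all genes. The groups overlapped for others, among them IFIT1 (58.9 and 3.43 FPKM after knockdown against 35.9 and 3.30 FPKM in the controls), IFIT2, IFIT3, ADAR and TRIM25, named after their values were seen. The 4 genes with the smallest p in the list follow, so that their separation is given by that choice. ISG15, the ubiquitin-like modifier, had 577 and 631 FPKM after knockdown against 277 and 247 FPKM in the controls (log2 fold change 1.20, adjusted p = 0.137 in limma). OASL, which enhances RNA sensing, had 26.5 and 26.8 FPKM after knockdown against 13.9 and 13.9 FPKM in the controls. IFI16, a DNA sensor, had 4.94 and 4.75 FPKM after knockdown against 1.83 and 2.17 FPKM in the controls. IFIT5, an RNA-binding protein, had 7.85 and 8.76 FPKM after knockdown against 1.13 and 0.0531 FPKM in the controls.

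Among ligands, 7 of 20 interferon genes were above 0 and only IFNL1 and IFNB1 were tested. IFNL1, a type III interferon, had 5.83 and 6.28 FPKM after knockdown against 3.49 and 3.98 FPKM in the controls (log2 fold change 0.58, unadjusted p = 0.00875, adjusted p = 0.330 in limma). IFNB1 had 1.26 and 1.45 FPKM after knockdown against 1.08 and 0.951 FPKM in the controls (log2 fold change 0.22, unadjusted p = 0.123 in limma). Neither passed the adjusted threshold. Of the ligands under the filter, named after their values were seen, IFNE lay the other way, at 0 FPKM in each knockdown library and at 0.619 and 0.579 FPKM in the controls. IFNL2 had 1.12 and 0.919 FPKM after knockdown against 0.470 and 0.321 FPKM in the controls, and IFNL3 had 1.18 and 0.918 FPKM against 0.447 and 0.537 FPKM, but these close paralogues may share reads. IFNA1 and IFNA13 were above 0 in control replicate 2 only. A position of each knockdown library above each control, as for IFNL1, IFNB1, IFNL2 and IFNL3, was seen for 16.0% of all genes above 0.

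The genes that carry the signal were mixed. Of 24 signalling genes, 22 were tested, 8 with a higher and 14 with a lower mean in sh-MFAP2, and the median log2 fold change was -0.02. At an unadjusted p under 0.05, 3 were higher (IRF7, PTPN11 and IRF9) and 1 was lower (STAT3), beside 3.89% and 8.41% of all genes. IRF9, the DNA-binding partner of STAT2, had 12.6 and 14.0 FPKM after knockdown against 8.70 and 8.42 FPKM in the controls (log2 fold change 0.58, adjusted p = 0.320 in limma). IRF7, which is itself interferon-induced, had 21.3 and 19.7 FPKM after knockdown against 11.3 and 12.1 FPKM in the controls (log2 fold change 0.76, adjusted p = 0.238 in limma). STAT2 had 3.30 and 5.22 FPKM after knockdown against 4.16 and 4.74 FPKM in the controls. The groups overlapped for STAT2.

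Paralogues and partners of the members outside that list had a median near that of all genes. Of 38 paralogues and partners, 31 were tested, 13 with a higher and 18 with a lower mean in sh-MFAP2, and the median log2 fold change was -0.08. At an unadjusted p under 0.05, 1 was higher (PARP6) and 3 were lower (MFN1, DNM1L and XIAP), beside 3.89% and 8.41% of all genes, so that the shares in the list were near the background. The counts of these lists are a description and do not set them apart by a test.

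**Figure D4:**
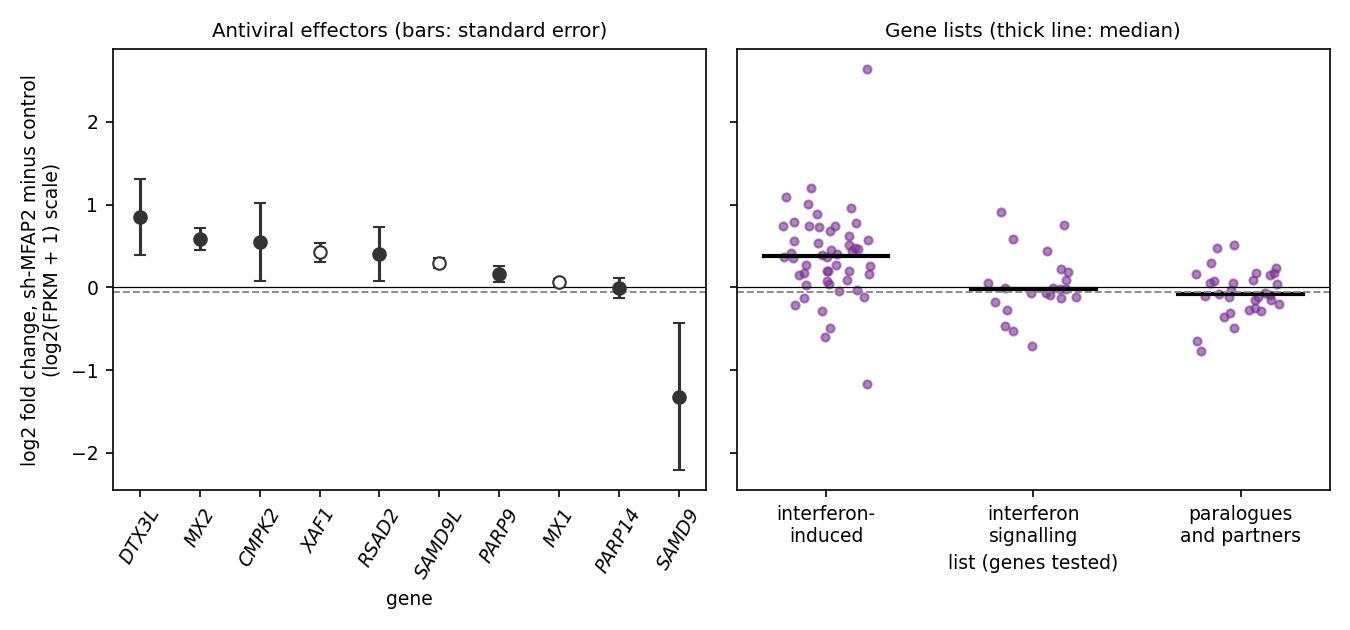
Log2 fold change, sh-MFAP2 minus control on the log2(FPKM + 1) scale, for the 10 genes (left, bars are standard errors, open points are the 3 genes under the filter) and for the tested genes of 3 lists (right, 1 point per gene, thick line the median); the dashed line is the median of all genes tested, -0.05. The interferon-induced list has its median at 0.38, and the signalling list and the paralogues and partners have theirs at -0.02 and -0.08.

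The genes whose profile over the 4 libraries was most like the median profile of the 7 members tested were SLC4A11, ERICH1, MDK, C6orf15 and AKR1A1, at root mean square distances of 0.00818 to 0.0116 on the log2 scale. That median profile was small, between -0.11 and 0.08 in each library, and 1423 genes lay within 0.1 of it. SLC4A11, the nearest, had 6.77 and 6.75 FPKM after knockdown against 5.80 and 5.99 FPKM in the controls.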

How the data were processed

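For 4 RNA libraries, the authors deposited values per gene and values per transcript in 2 tables. Neither names a unit. The deposited values were read as FPKM, since they are not whole numbers and low values lie on steps of read over length. The build hg38 comes from the submitters' processing notes, and the aligner, the program that estimated FPKM, its filters and the library's strandedness are not given in the sources used here. GENCODE 29 (GRCh38) held 43715 of the gene identifiers (92.5%). Depth was estimated from steps of single-transcript genes over 1000 bases (about 54600000, 59000000, 60800000 and 74700000 reads). Whole steps held just 58.9% to 59.6% of the low values (tolerance 0.05), so no count test was run, and intervals for counting error cannot be given. Of the values on whole steps, 69.0% to 74.3% lay on even steps.

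Groups and replicates came from the labels. Log2(FPKM + 1) was fitted with lmFit and eBayes with a trend in limma 3.58.1 (R 4.3.3) over genes, or transcripts, with a mean of at least 1 FPKM, with Benjamini-Hochberg adjustment over all of them, and the fit was tested on simulated data. Other steps used pandas 2.3.3 and numpy 2.4.6 in Python 3.11.15, with matplotlib 3.10.9 for plots. The members, the lists and the markers were chosen with earlier results of these data known. Besides the 10 members and MFAP2, the genes named were up to 4 with the smallest unadjusted p in each list, STAT2 and IRF9, and the 5 nearest in profile; the results of 2 further genes are not reported here. Promoters were those of RefSeq, and no protein sequences were used. Alternatives were quantile normalization, median of ratios, a pseudocount of 0.1, no filter, a higher filter (mean 5 FPKM), the replicate block, no trend, transcript sums and each library left out. Where 1 library was left alone in a group, it was assumed to vary like the other group. The grouping of PARP9 transcripts, the one-base-spacer motif and the counts of genes with 1 library apart were chosen after seeing the data.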

Additional observations from a re-analysis of the deposited data

How the results depend on the processing

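No member was a DEG under any alternative run. Of 104 values of log2 fold change of single members under alternatives, 94 kept their direction and side of the thresholds (for the 3 members under the filter, their value within 1 SD of replicates). For the 7 members over the filter, sums of transcripts were not fitted and were judged by direction alone. Where an alternative called no gene at all, no member could change side. Size was not judged for these 7: without control replicate 2, CMPK2 went from 0.55 to 0.02 and SAMD9 from -1.32 to -0.11. A further 5 values moved in MX1, SAMD9L and XAF1 under a pseudocount of 0.1 or sums of transcripts, and 5 reversed. All 5 reversals were of PARP14, to 0.050 with quantile normalization, 0.057 with median of ratios and 0.0005 with sums of transcripts, and its range with a library left out was -0.088 to 0.070 (above 0 without sh-MFAP2 replicate 1 and with control replicate 2 removed). The 27 DEGs of the whole table became 6 with no filter, 9 with the higher filter (mean 5 FPKM), 46 when only an adjusted p under 0.1 was asked, and 0 with each library left out. The replicate block left 0 DEGs, and with it MX2 was the 1 member higher at an unadjusted p under 0.05. The replicate numbers did not pair the libraries (correlation -0.0572 between the groups of replicate differences). Members higher at an unadjusted p under 0.05 numbered 1, but 3 with no filter, 0 with the higher filter, and 0 to 1 with a library left out (DTX3L in place of MX2 without control replicate 1). Of the 7 members over the filter, 3 had both sh-MFAP2 libraries above both controls, beside 17.5% of all genes tested. With no filter it was 6 of all 10, beside 16.0%. With a library left out it was 4 to 5 of 7, but fewer libraries make the condition easier to meet for any gene. The share of all genes was not counted there. Member transcripts at an unadjusted p under 0.05 numbered 2, beside 7.64% of all transcripts tested. With no filter they numbered 4, where the share of all transcripts was not counted. The median log2 fold change of the interferon-induced list was 0.45 with a pseudocount of 0.1, 0.44 with quantile normalization and with median of ratios, and 0.30 to 0.39 with a library left out. That of the signalling list ran from -0.055 to 0.054 with a library left out. That of paralogues and partners was -0.12 with the higher filter, -0.10 with a pseudocount of 0.1, -0.026 with quantile normalization, -0.025 with median of ratios, and -0.098 to -0.034 with a library left out. The causes were not tested, beyond the fewer genes or libraries that some of these settings use.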
